A study of Rattus norvegicus with 8 samples.

Results

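Transcripts of the Nrf2-type antioxidant genes were compared across 4 groups of cultured rat aortic smooth muscle cells. The set holds 9 genes, Gclc, Gclm, Slc7a11, Gsr, Txnrd1, Srxn1, Prdx1, Nqo1 and Hmox1. Members were found as probe sets annotated to 1 member symbol, and the brightest probe set stood for each gene. Of the 9 genes, 8 had such a probe set, and all 8 were among the 11377 genes tested. The Prdx1 probe set is shared with the symbol Prdx1l1, so Prdx1, a peroxidase that destroys hydrogen peroxide, has no value here.

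Nrf2 is a transcription factor, encoded by Nfe2l2, that the adaptor protein Keap1 holds at a low level by marking it for destruction. Oxidants and electrophiles disable Keap1, and Nrf2 then pairs with small Maf proteins on antioxidant response elements of genes that make glutathione, recycle thioredoxin and detoxify quinones and haem. In the vessel wall this programme is known for tempering the oxidant load that angiotensin II (Ang II) produces in smooth muscle.

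Male Sprague-Dawley rats gave the cells, which were taken from the thoracic aorta and grown in medium with serum, and the labels name no engineered allele in any group. They received a non-targeting siRNA (siNTC) or an siRNA against Giver, a long non-coding RNA of these cells, for 48 h (siGiver). Ang II at 100 nM or phosphate-buffered saline (PBS) was then added for 3 h, and each of the 4 combinations has 2 Affymetrix arrays. Whether replicate arrays stem from separate cultures is not given in the labels, so p-values here reflect a spread that may be technical alone. The knockdown of Giver was not analysed here, as the annotation used names no probe set for it.

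Values are log2 expression after RMA, a method that normalizes arrays to each other, so a gene can be compared across arrays but not with another gene. Arrays of a group correlated at 0.998 over all probe sets, and array medians lay between 6.15 and 6.19. All 10 smooth muscle markers lay above the filter on low values (4.81 log2, the 30th percentile), while none of 7 endothelial markers did. Of 8 macrophage markers, Cd14 (8.37 log2), Aif1 (5.72) and Cd68 (5.01) lay above it and Ptprc, Csf1r, Itgam, Adgre1 and Cd163 below, and 6 of 6 fibroblast markers lay above it. In bulk RNA, fewer cells of a type and less RNA per cell cannot be told apart. A difference counts as called at an adjusted p under 0.05 in limma, with Benjamini-Hochberg adjustment over all 11377 genes, and errors are standard errors (SE) of that fit.

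The antioxidant response element core, TGACNNNGC, was searched on both strands of RefSeq promoter windows (build GRCr8, 250 bases before to 50 after the start). Windows were found for 7 of the 9 genes, with 2 for Txnrd1, and Gsr and Hmox1 had none. Of these 8 windows 3 held the core, against 12.1% of all 33469 windows. The windows of Nqo1, Gclc, Slc7a11 and Srxn1 and 1 of the 2 Txnrd1 windows held none. Bases outside the windows were not searched. The AP-1 site, TGANTCA, lay in 2 of 8 windows against 7.33% of all, and the ATF4 site TGATGNAAN in 0 of 8 against 3.97%. A match is a run of letters, not a measured binding site. The stretches below show the 3 antioxidant element matches, in Gclm, Txnrd1 and Prdx1, and 1 AP-1 match of Srxn1, 5′ to 3′ on the gene's strand, with the match in capitals. Prdx1 and Srxn1 each held 2 AP-1 matches. In Prdx1 one lies inside the antioxidant element match and the other, from 248 to 242 bases before the start, is not shown, and the other Srxn1 match spans the start and is not shown.
Gclm, antioxidant element core on the opposite strand, chr2:213031938-213031996, plus strand: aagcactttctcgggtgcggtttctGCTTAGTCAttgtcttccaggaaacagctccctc
Txnrd1, antioxidant element core on the opposite strand, chr7:22755949-22756007, minus strand: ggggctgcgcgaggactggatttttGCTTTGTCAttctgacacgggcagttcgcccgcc
Prdx1, antioxidant element core on the opposite strand, chr5:135383746-135383804, plus strand: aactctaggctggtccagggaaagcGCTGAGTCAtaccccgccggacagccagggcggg
Srxn1, AP-1 site, chr3:161064725-161064781, plus strand: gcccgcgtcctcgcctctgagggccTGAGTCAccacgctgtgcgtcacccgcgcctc

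The first question was how cells given Giver siRNA differed from control cells without and with Ang II. Of the 8 measured genes, 6 were higher in siGiver cells in PBS, where 16.0% of all genes were called higher. Gsr was lower, where 19.1% of all genes were called lower, and Gclm did not pass. With Ang II, 6 were higher against 19.5% of all genes, and none was lower against 24.8%. Arrays of the siRNA groups did not overlap for 8 of 8 genes in PBS, as for 67.1% of all genes, and for 7 of 8 with Ang II, as for 72.4%. The same 6 genes, Nqo1, Txnrd1, Gclc, Srxn1, Slc7a11 and Hmox1, were higher in both comparisons, and 1352 of the 11377 genes tested (11.9%) were as well. The 2 comparisons use separate arrays but share 1 estimate of the spread per gene, so their calls are not independent. The median difference over the 8 genes was 0.36 log2 in PBS and 0.45 with Ang II, against -0.0047 and -0.026 over all genes tested. Members were chosen with earlier results of these data known, so these counts and medians describe the set and do not test it against all genes. Markers of cell types moved with the siRNA as well. The mean level of smooth muscle markers lay between 10.17 and 10.27 log2 in siNTC arrays and between 10.53 and 10.57 in siGiver arrays. Of the 10 markers 7 were higher and 1 lower in PBS, and 8 and 1 with Ang II, with median differences of 0.40 and 0.52 log2. Of 3 macrophage markers tested none was called in PBS and 2, Cd14 and Cd68, were lower with Ang II, and of 6 fibroblast markers none was called in PBS and 3 were higher with Ang II. The mean level of all 8 macrophage markers lay between 4.59 and 4.70 in siNTC arrays and between 4.48 and 4.72 in siGiver arrays, and that of the fibroblast markers between 7.19 and 7.50 and between 7.40 and 7.58. The part of these markers in the antioxidant differences was not tested.

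**Figure D1:**
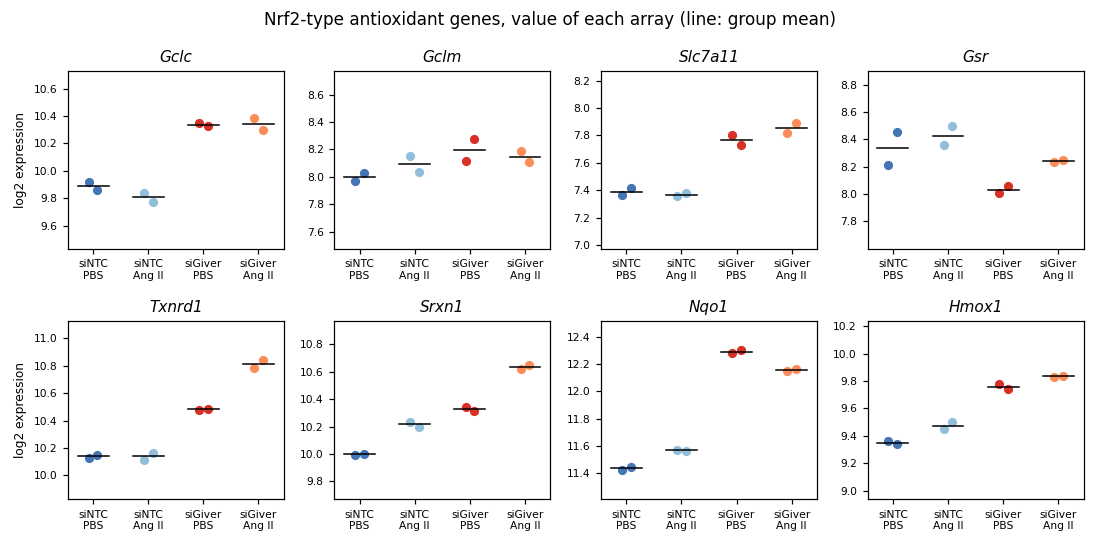
Log2 expression of the 8 measured genes on each of 8 arrays, by group (points, 2 arrays per group; lines, group means), with every panel spanning the same log2 range. For Nqo1, Txnrd1, Gclc, Srxn1, Slc7a11 and Hmox1 each siGiver array lies above each siNTC array.

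Glutathione synthesis begins with cystine, which the antiporter subunit encoded by Slc7a11 brings into the cell. Slc7a11 stood at 7.36 and 7.42 log2 in siNTC PBS arrays, at 7.35 and 7.38 in siNTC Ang II arrays, at 7.81 and 7.73 in siGiver PBS arrays and at 7.82 and 7.89 in siGiver Ang II arrays. The 4 siGiver arrays all lay above the 4 siNTC arrays. The difference was 0.38 ± 0.050 in PBS (1.30-fold, adjusted p = 0.00104) and 0.49 ± 0.050 with Ang II (1.40-fold, adjusted p = 0.000224).

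Gclc encodes the catalytic subunit of glutamate-cysteine ligase, the rate-limiting enzyme of glutathione synthesis. Its siNTC arrays read 9.92 and 9.86 in PBS and 9.84 and 9.77 with Ang II, and its siGiver arrays 10.35 and 10.32 in PBS and 10.39 and 10.29 with Ang II. The siRNA groups did not overlap, and Gclc was higher in siGiver cells by 0.44 ± 0.052 in PBS (1.36-fold, adjusted p = 0.000614) and by 0.53 ± 0.052 with Ang II (1.45-fold, adjusted p = 0.000177).

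Gclm encodes the modifier subunit of the same ligase, and its differences were smaller and did not pass. Its arrays read 7.97 and 8.03 in siNTC PBS, 8.15 and 8.04 in siNTC Ang II, 8.12 and 8.28 in siGiver PBS, and 8.19 and 8.11 in siGiver Ang II. The PBS groups were separate, at a difference of 0.20 ± 0.069 (95% interval 0.038 to 0.36, adjusted p = 0.0584), and the Ang II groups overlapped, at 0.05 ± 0.069 (-0.11 to 0.21, adjusted p = 0.576). The difference in PBS was called under 4 of 15 alternatives, among them cyclic loess (0.22, adjusted p = 0.0311).

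Gsr encodes glutathione reductase, which returns oxidized glutathione to its reduced form, and it was the member lower in siGiver cells. Its siNTC PBS arrays were the most spread pair among the 8 genes, at 8.21 and 8.45 log2, and siNTC Ang II arrays read 8.36 and 8.49. In siGiver cells it stood at 8.01 and 8.06 in PBS and at 8.23 and 8.25 with Ang II. The difference in PBS was -0.30 ± 0.083 (1.23-fold lower, adjusted p = 0.0264), and with Ang II -0.18 ± 0.083 (adjusted p = 0.111). The PBS call was lost without siNTC PBS replicate 2, where the difference was -0.18 (adjusted p = 0.116), and without siGiver PBS replicate 1 (-0.28, adjusted p = 0.114) or replicate 2 (-0.33, adjusted p = 0.0667).

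Txnrd1 encodes the cytosolic thioredoxin reductase, a selenoenzyme that passes electrons from NADPH to thioredoxin. Its siNTC arrays lay together, at 10.13 and 10.15 in PBS and 10.11 and 10.17 with Ang II. The siGiver arrays formed separate steps, at 10.48 and 10.48 in PBS and 10.79 and 10.84 with Ang II. Txnrd1 was higher in siGiver cells by 0.34 ± 0.046 in PBS (1.27-fold, adjusted p = 0.00109) and by 0.68 ± 0.046 with Ang II (1.60-fold, adjusted p = 3.84e-05).

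Srxn1 encodes sulfiredoxin, which repairs peroxiredoxins that peroxide has overoxidized. It read 9.99 and 10.003 in siNTC PBS arrays, 10.24 and 10.2008 in siNTC Ang II arrays, 10.35 and 10.32 in siGiver PBS arrays, and 10.62 and 10.65 in siGiver Ang II arrays. No group overlapped another, and the order rose from siNTC PBS to siGiver Ang II. The siRNA difference was 0.33 ± 0.043 in PBS (1.26-fold, adjusted p = 0.000898) and 0.42 ± 0.043 with Ang II (1.34-fold, adjusted p = 0.000219).

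Nqo1 encodes a quinone reductase that is the customary marker of Nrf2 activity, and it had the largest siRNA difference of the 8 genes in PBS. Its arrays read 11.43 and 11.45 in siNTC PBS, 11.57 and 11.57 in siNTC Ang II, 12.28 and 12.30 in siGiver PBS, and 12.15 and 12.16 in siGiver Ang II. The siGiver arrays all lay above the siNTC arrays, and the arrays of a group differed by little. Nqo1 was higher by 0.85 ± 0.041 in PBS (1.80-fold, adjusted p = 3.01e-05) and by 0.59 ± 0.041 with Ang II (1.50-fold, adjusted p = 4.43e-05).

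Hmox1 encodes the inducible haem oxygenase, which breaks haem into biliverdin, iron and carbon monoxide. It stood at 9.36 and 9.34 in siNTC PBS arrays, at 9.45 and 9.50 in siNTC Ang II arrays, at 9.78 and 9.74 in siGiver PBS arrays and at 9.83 and 9.84 in siGiver Ang II arrays. The siRNA arms were separate, with a difference of 0.41 ± 0.044 in PBS (1.33-fold, adjusted p = 0.000425) and 0.36 ± 0.044 with Ang II (1.28-fold, adjusted p = 0.000506).

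**Figure D2:**
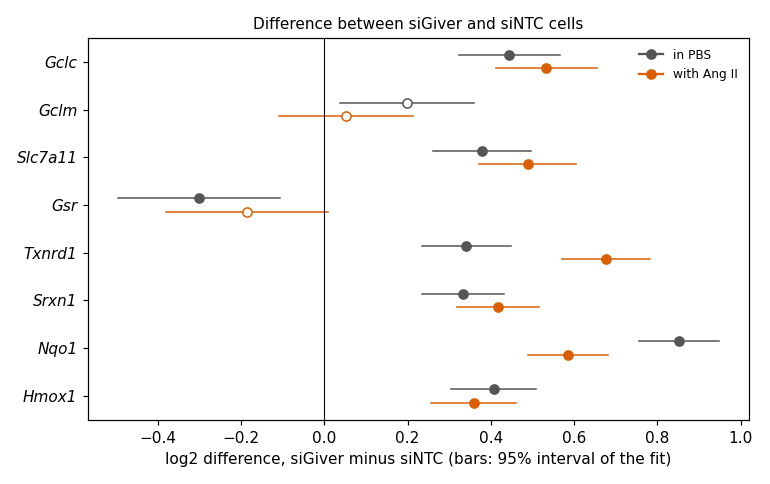
Log2 difference between siGiver and siNTC cells for the 8 genes in PBS (grey) and with Ang II (orange), with 95% intervals of the limma fit; filled points were called and open points were not. Nqo1 lies highest in PBS at 0.85, Txnrd1 highest with Ang II at 0.68, and Gsr lies below 0 in both.

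The second question was how 3 h of Ang II changed these genes in each siRNA arm. In siNTC cells 1 of the 8 genes was called higher, where 3.96% of all genes were, and none lower, where 2.17% were. In siGiver cells 2 were higher, against 9.11% of all genes, and none lower, against 7.17%. With array medians subtracted, 67.5% of all calls in siGiver cells were higher, against 55.9% in the values as deposited. Srxn1 was the one called higher in both arms, as were 197 of the 11377 genes tested (1.73%), and Txnrd1 was called in siGiver cells. The median difference over the 8 genes was 0.094 log2 in siNTC cells and 0.081 in siGiver cells, against 0.0058 and -0.028 over all genes. With Ang II, 3 of 10 smooth muscle and 4 of 6 fibroblast markers were lower in siNTC cells and none was higher, while in siGiver cells 2 smooth muscle markers were higher and 1 lower, and 1 fibroblast marker was lower. No macrophage marker was called in either arm, and the part of these markers in the Ang II differences was not tested.

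Srxn1 rose with Ang II by 0.22 ± 0.043 in siNTC cells (1.17-fold, adjusted p = 0.0266) and by 0.30 ± 0.043 in siGiver cells (1.23-fold, adjusted p = 0.00324). The siNTC call was lost without the filter on low values (adjusted p = 0.0551) and when siNTC PBS replicate 1 or 2 (adjusted p = 0.121 and 0.0834), siNTC Ang II replicate 1 or 2 (0.126 and 0.102) or either siGiver Ang II array (0.0512 each) was left out, while its value stayed between 0.20 and 0.33 over 15 alternatives. Txnrd1 rose by 0.33 ± 0.046 in siGiver cells (1.26-fold, adjusted p = 0.0029), a call kept under all 15 alternatives. In siNTC cells its Ang II difference was -0.0020 ± 0.046 (95% interval -0.11 to 0.10).

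Among the genes that did not pass, Nqo1 stood at 0.13 ± 0.041 in siNTC cells (adjusted p = 0.109) and at -0.13 ± 0.041 in siGiver cells (adjusted p = 0.0646), with separate arrays both times. The Nqo1 difference was called under 1 of 15 alternatives in siNTC cells and under 3 of 15, among them cyclic loess, in siGiver cells. Hmox1 stood at 0.12 ± 0.044 and 0.076 ± 0.044, and Gsr at 0.093 ± 0.083 and 0.21 ± 0.083. Gclc, Gclm and Slc7a11 lay between -0.086 and 0.095 in both arms. Arrays of the Ang II and PBS groups did not overlap for 5 of these 8 genes in siNTC cells (Nqo1, Gclc, Gclm, Srxn1 and Hmox1), and that held for 52.7% of all genes. In siGiver cells it held for 6 of 8, against 62.3%.

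**Figure D3:**
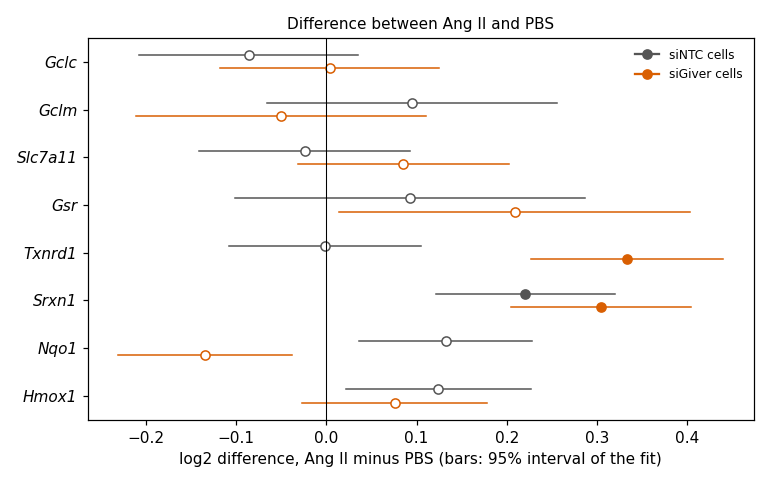
Log2 difference between Ang II and PBS for the 8 genes in siNTC cells (grey) and siGiver cells (orange), with 95% intervals of the limma fit; filled points were called and open points were not. Srxn1 is filled in both arms, Txnrd1 in siGiver cells at 0.33, and Nqo1 lies above 0 in siNTC cells and below 0 in siGiver cells.

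The interaction, the Ang II difference of the siGiver arm less that of the siNTC arm, tested whether the arms responded differently. Of the 8 genes 1 was called higher and 1 lower, where 3.35% and 2.87% of all genes were. Txnrd1 had a greater Ang II difference in siGiver cells, by 0.34 ± 0.064 (adjusted p = 0.0252). Nqo1 had a lower one, by -0.27 ± 0.058 (adjusted p = 0.0401). Both calls were lost without the filter on low values and when any single array was left out, and the Nqo1 call also with array medians subtracted (-0.25, adjusted p = 0.0687) and with every probe set on its own (adjusted p = 0.0651). With an array left out the Txnrd1 value ranged from 0.31 (without siGiver Ang II replicate 2) to 0.36 (without siGiver Ang II replicate 1), with adjusted p between 0.0532 and 0.0898. The Nqo1 value then ranged from -0.28 (without siGiver PBS replicate 1) to -0.25 (without siGiver PBS replicate 2), with adjusted p between 0.0784 and 0.117. The other 6 genes lay between -0.15 and 0.12, none with an adjusted p under 0.413.

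Further probe sets gave a check on Gclc, Srxn1 and Txnrd1 when every probe set was tested on its own. The dimmer Gclc probe set was higher in siGiver cells by 0.53 ± 0.059 in PBS and 0.70 ± 0.059 with Ang II, and rose with Ang II in siGiver cells (0.25 ± 0.059, adjusted p = 0.0314), where the brighter one stood at 0.0040. The dimmer Srxn1 probe set showed 0.45 ± 0.063 and 0.62 ± 0.063 between the siRNAs, and rose with Ang II by 0.44 in siNTC cells (adjusted p = 0.0112) and 0.61 in siGiver cells (adjusted p = 0.0011). Another Srxn1 probe set, at 3.55 log2, lay below the filter. The dimmer Txnrd1 probe set showed 0.48 ± 0.081 and 0.93 ± 0.081 between the siRNAs and rose with Ang II by 0.54 in siGiver cells (adjusted p = 0.00546), while its interaction of 0.45 ± 0.11 did not pass (adjusted p = 0.082).

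Regulators of the pathway were examined next. Nfe2l2, which encodes Nrf2 itself, read 11.77 and 11.76 in siNTC PBS arrays, 11.78 and 11.75 in siNTC Ang II arrays, 11.95 and 11.93 in siGiver PBS arrays, and 11.98 and 11.92 in siGiver Ang II arrays. It was higher in siGiver cells by 0.17 ± 0.044 in PBS (adjusted p = 0.0186) and 0.18 ± 0.044 with Ang II (adjusted p = 0.0119). Its PBS call was lost when any PBS array was left out, and the call with Ang II without siNTC Ang II replicate 2 or siGiver Ang II replicate 1. Keap1, the Nrf2 inhibitor, read 8.79 and 8.78 in siNTC PBS, 8.95 and 8.93 in siNTC Ang II, 8.72 and 8.65 in siGiver PBS, and 8.41 and 8.50 in siGiver Ang II. Its levels were lowest in siGiver cells with Ang II, where it was lower than in siNTC cells by -0.48 ± 0.051 (adjusted p = 0.000249). The Keap1 difference in PBS did not pass (-0.10 ± 0.051, adjusted p = 0.162).

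Among the small Maf partners, Maff read 8.37 and 8.32 in siNTC PBS arrays, 8.56 and 8.57 in siNTC Ang II arrays, 8.23 and 8.25 in siGiver PBS arrays, and 9.12 and 9.06 in siGiver Ang II arrays. Ang II raised Maff by 0.85 ± 0.045 in siGiver cells (adjusted p = 2.79e-05) and by 0.22 ± 0.045 in siNTC cells (adjusted p = 0.0333, a call lost in 10 of 15 alternatives). Mafk and Mafg rose with Ang II in siGiver cells by 0.51 ± 0.082 and 0.24 ± 0.053, and the Mafg call was lost when any siGiver array was left out. Between the siRNAs with Ang II, Maff was higher in siGiver cells by 0.52 (adjusted p = 0.000104) and Mafk by 0.40 (adjusted p = 0.00537). Mafg did not pass there (-0.047, adjusted p = 0.519). Bach1, the haem-sensing repressor of Hmox1 and other Maf targets, did not pass in any comparison and stood at -0.14 ± 0.078 between the siRNAs in PBS. In all, of 10 regulators 1 was higher and 2 lower in siGiver cells in PBS, with a median of -0.096, and 3 were higher and 3 lower with Ang II, with a median of -0.056. Over all genes, 16.0% were higher and 19.1% lower in PBS, and 19.5% and 24.8% with Ang II. Nfe2l1, which encodes a related factor, was lower by -0.46 in PBS, and by -0.17 with the mean of its probe sets.

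**Figure D4:**
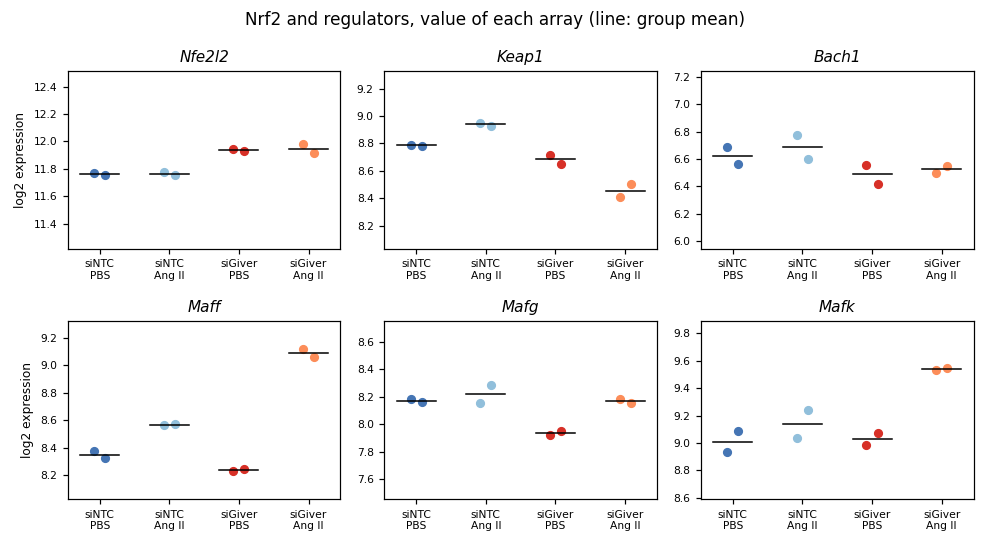
Log2 expression of Nfe2l2, its inhibitor Keap1, the repressor Bach1 and the small Maf genes Maff, Mafg and Mafk on each of 8 arrays (points, 2 arrays per group; lines, group means), every panel spanning the same log2 range. Nfe2l2 arrays lie at 11.92 or above in siGiver cells and at 11.78 or below in siNTC cells, and Maff, Mafk and Keap1 stand apart in siGiver cells with Ang II.

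Other genes often listed as Nrf2 targets did not share one direction. Of 24 listed, 21 were tested, and 7 were higher and 4 lower in siGiver cells in PBS, with a median of 0.043 log2. With Ang II, 8 were higher and 7 lower, with a median of -0.069. The shares of all genes called higher and lower were 16.0% and 19.1% in PBS, and 19.5% and 24.8% with Ang II. The genes with the smallest p in PBS were Gstm1, a glutathione transferase, at 1.23 ± 0.053, Gsta1, another transferase, at 0.58 ± 0.042, the stress-inducible gene Osgin1 at 0.74 ± 0.067, and the membrane-bound transferase gene Mgst1 at -0.62 ± 0.063. Gstm1 and Gsta1 belong to multigene families whose members are alike in sequence, so a probe set may read more than 1 of them. Mgst1 was also lower with Ang II, at -1.02 ± 0.063.

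Other genes of glutathione synthesis and use were examined next. Of 16 tested, 2 were higher and 6 lower in siGiver cells in PBS (median -0.13), where 16.0% of all genes were higher and 19.1% lower. With Ang II 1 was higher and 6 lower (median -0.15), against 19.5% and 24.8% of all genes. Slc3a2, which encodes the heavy chain that pairs with the Slc7a11 product, was higher by 0.44 ± 0.045 in PBS (adjusted p = 0.000344) and 0.25 ± 0.045 with Ang II (adjusted p = 0.00344). Gss, glutathione synthetase, the enzyme that follows glutamate-cysteine ligase, was lower in PBS by -0.38 ± 0.058 (adjusted p = 0.00197) and stood at -0.014 with Ang II. Gpx1, a glutathione peroxidase gene, was lower by -0.14 ± 0.042 in PBS (adjusted p = 0.0305) and -0.28 ± 0.042 with Ang II (adjusted p = 0.00128). Its PBS call was kept in 7 of 15 alternatives, and was lost without the filter, with cyclic loess and when any PBS array or either siGiver Ang II array was left out. Gpx4, the peroxidase of lipid peroxides, was lower by -0.47 ± 0.049 and -0.67 ± 0.049 at its brightest probe set. With the mean of its probe sets Gpx4 stood at -0.087 in PBS and no longer passed, and at -0.33 with Ang II.

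Of 10 other thioredoxin and peroxiredoxin genes, 4 were higher and 2 lower in siGiver cells in PBS (median 0.045), and 2 were higher and 4 lower with Ang II (median -0.064). All genes together had 16.0% higher and 19.1% lower in PBS, and 19.5% and 24.8% with Ang II. Txn1, the thioredoxin that Txnrd1 reduces, was higher by 0.17 ± 0.042 in PBS (adjusted p = 0.0181, a call lost when any PBS array was left out) and stood at -0.031 with Ang II. The peroxidase genes Prdx4 and Prdx6 were higher by 0.31 ± 0.042 and 0.31 ± 0.060 in PBS and by 0.27 and 0.35 with Ang II. The mitochondrial members Prdx3 and Txn2 were lower by -0.15 and -0.17 in PBS (adjusted p = 0.0348 and 0.0387) and by -0.31 and -0.27 with Ang II (adjusted p = 0.000952 and 0.0044). Of 15 alternatives, 3 kept the PBS call of Prdx3 and 7 that of Txn2, and both were lost without the filter, with cyclic loess, with array medians subtracted and when siNTC PBS replicate 2 or any siGiver array was left out. For Prdx3 leaving out any of the 8 arrays ended it.

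ATF4, a stress-activated factor that also acts on Slc7a11, was examined with genes often listed as its targets. Of 18 tested, 6 were higher and 4 lower in siGiver cells in PBS (median 0.11), and 7 were higher and 4 lower with Ang II (median 0.050). Over all genes the shares were 16.0% and 19.1% in PBS, and 19.5% and 24.8% with Ang II. Slc7a1, a cationic amino acid transporter gene, was higher by 0.85 ± 0.057 and 1.47 ± 0.057, and Psat1, of serine synthesis, by 0.64 ± 0.046 and 0.53 ± 0.046. Atf4 itself did not pass between the siRNAs (0.094 ± 0.044 in PBS and 0.071 ± 0.044 with Ang II). With Ang II, 8 of these 18 genes were higher and 1 lower in siNTC cells, against 3.96% and 2.17% of all genes. Ddit3 (0.55 ± 0.042) and Atf3 (0.54 ± 0.058) led them. In siGiver cells 7 were higher and 1 lower, against 9.11% and 7.17% of all genes, and Atf3 (0.94 ± 0.058) and Slc7a1 (0.93 ± 0.057) led them.

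**Figure D5:**
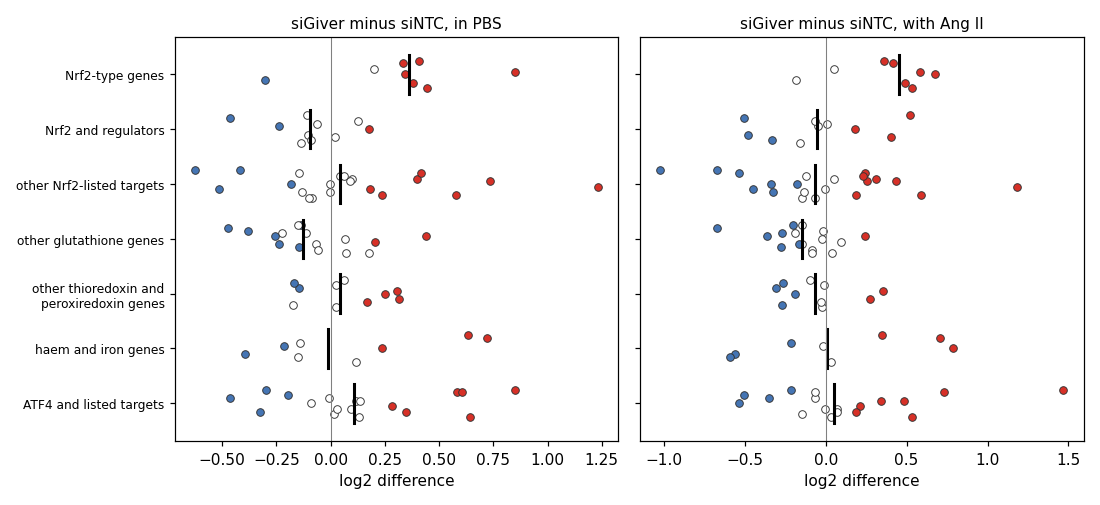
Log2 difference between siGiver and siNTC cells for every tested gene of 7 lists, in PBS (left) and with Ang II (right); red points were called higher, blue lower and open points neither, black bars mark list medians, and vertical jitter has no meaning. The Nrf2-type genes have medians of 0.36 and 0.45, and the other lists shown have medians between -0.13 and 0.11 in PBS and between -0.15 and 0.050 with Ang II. All 7 lists were chosen with earlier results of these data known, so the medians are descriptions. Smooth muscle markers, not shown, have medians of 0.40 and 0.52.

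The genes most like a member were sought among 1856 genes whose group means spanned at least 0.5 log2, by Pearson correlation over the 8 arrays. The arrays share 4 conditions and 1 normalization, so the correlations are descriptions. Nqo1, Txnrd1, Gclc and Srxn1 spanned 0.5 log2 themselves. Nqo1 was most like Phpt1 (0.9968), Tmbim6 (0.9968) and Spc24 (0.9966). Txnrd1 was most like the MAPK phosphatase gene Dusp14 (0.9973), Foxs1 (0.9945) and the fibronectin receptor subunit gene Itga5 (0.9932). Gclc was most like Tfe3 (0.9973), Spag5 (0.9925) and Hipk1 (0.9916), and Srxn1 was most like Aopep (0.9925), Stk38l (0.9898) and Nipal1 (0.985). No gene was among the nearest 3 of more than 1 member.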

How the data were processed

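RNA of 8 arrays was measured, 2 per group, from 5 ug of total RNA per array per the labels. The deposited values are log2 expression per probe set, and RMA and Partek are named in the submitters' processing notes, with no version in the sources used here. Arrays have no read depth, and their number limits the precision. Gene names come from GEO's annotation of the array, with symbols updated by gene identifier (20758 of 20826 probe sets with 1 symbol matched). Probe sets with a mean under the 30th percentile (4.81 log2) were left out, and the brightest per symbol was kept.

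With limma 3.58.1 (R 4.3.3), 1 mean per group was estimated over the 8 arrays together, with 4 residual and 3.53 prior degrees of freedom, and tested in 5 contrasts. Scripts were tested on simulated data.

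The members, lists, motifs and alternatives were chosen with earlier results of these data known. All members are given, and from each list the text names some of the up to 4 genes with the smallest p per contrast and some with a direct role (Nfe2l2, Keap1, Bach1, Txn1, Gss, Slc3a2 and Atf4). A gene named for 1 contrast may be given in others, and genes called for the interaction are given in the closing section. Likeness to a member was ranked over the 8 arrays, clone and locus names skipped.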

Additional observations from a re-analysis of the deposited data

Results flagged for a closer look

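The Ang II difference differed between siGiver and siNTC cells, by limma's interaction term, for 2 of 8 antioxidant genes and 15 genes of the further lists. Those lists had 10 regulators, 21 other listed Nrf2 targets, 16 glutathione, 10 thioredoxin and peroxiredoxin, 8 haem and iron and 18 ATF4 genes tested. Over all genes, 3.35% were called higher and 2.87% lower for the interaction. Cell type markers are not in this count, and of these 1 macrophage marker was called lower and 1 fibroblast marker higher. Txnrd1 stood at 0.34 (siGiver minus siNTC, log2) and Nqo1 at -0.27. Among regulators, Keap1 stood at -0.38 and Maff at 0.63. Glutathione synthetase, Gss, stood at 0.37, Txnip, which encodes an inhibitor of thioredoxin, at -0.44, and the detoxifying genes Mgst1 and Cbr3 at -0.40 and -0.39. Of iron genes, the transferrin receptor Tfrc stood at 0.55 and the iron exporter Slc40a1 at -0.44. Among ATF4 and its listed targets, Atf3 stood at 0.40, Slc7a1 at 0.62 and Slc7a5 at 0.35, while Ddit3 stood at -0.65, Ddit4 at -0.45, Sesn2 at -0.35 and Nupr1 at -0.31. Maff, Tfrc, Ddit3 and Slc7a1 kept their call under all 15 alternatives, and the other 13 lost it under at least 1. No outlier test applies to groups of 2 arrays.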

How the results depend on the processing

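The 12 calls between the siRNAs for Nqo1, Txnrd1, Gclc, Srxn1, Slc7a11 and Hmox1 held under each of the 15 alternatives run per gene, and no antioxidant gene's call reversed. Of 120 values per contrast, the side of the threshold changed for 8 in the Ang II effect in siNTC cells, 4 in siGiver cells, 7 in the siRNA effect in PBS, 3 with Ang II and 20 in the interaction. The antioxidant genes called for Ang II in siNTC cells (1) became 0 without the filter and 2 with trended, robust moderation. Those in siGiver cells (2) became 4 with trended, robust moderation, and 3 with a filter at the 50th percentile, with cyclic loess and with every probe set on its own. Those for the interaction (2) became 0 without the filter and 1 with array medians subtracted and with every probe set on its own. Over all genes, the Ang II calls in siNTC cells (698) became 420 without the filter, 1066 with a filter at the 50th percentile and 1496 with trended, robust moderation, those in siGiver cells (1852) became 2802 with trended, robust moderation, and those for the interaction (707) became 467 without the filter and 1490 with trended, robust moderation. Leaving out 1 array gave 226 to 526 genes for Ang II in siNTC cells, 866 to 1740 in siGiver cells, 2768 to 3779 and 3952 to 5027 for the siRNA in PBS and with Ang II, and 356 to 435 for the interaction, and 0 to 1, 2, 6 to 7, 6 to 7 and 0 antioxidant genes. Deviations of same-numbered arrays correlated between -0.172 and 0.096. No pairing by replicate number was seen in these values, which cannot exclude that same-numbered arrays were prepared together. With the replicate block 1 antioxidant gene was called for the interaction, Txnrd1 (adjusted p = 0.0376), while Nqo1 was not (-0.27, adjusted p = 0.0645). Values dimmer than the filter were tested only in the alternative without it, and the causes of these changes were not tested beyond the number of genes or arrays entering a fit.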

Other observations

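Genes of haem and iron handling, next to Hmox1 in the pathway, moved in both directions with the siRNA. Of 10 listed genes 8 were tested, and in siGiver cells 3 were higher and 2 lower in PBS (median -0.012 log2) and 3 were higher and 3 lower with Ang II (median 0.0059). Over all genes, 16.0% were higher and 19.1% lower in PBS, and 19.5% and 24.8% with Ang II. Slc48a1, a haem transporter gene, was higher by 0.72 ± 0.053 (adjusted p = 9.65e-05) and 0.70 ± 0.053, and Fech, which inserts the iron that completes haem, by 0.63 ± 0.051 and 0.35 ± 0.051. Blvrb, a biliverdin reductase gene, was lower by -0.40 ± 0.051 (adjusted p = 0.00095) and -0.56 ± 0.051. Blvra, the other biliverdin reductase gene listed, did not pass in PBS (-0.14, adjusted p = 0.0977) and was lower by -0.22 with Ang II (adjusted p = 0.0173). The transferrin receptor gene Tfrc was higher by 0.24 ± 0.048 in PBS and 0.78 ± 0.048 with Ang II, while the iron exporter gene Slc40a1 was lower with Ang II by -0.59 ± 0.063.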
